A study of Homo sapiens with 4 samples.

Results

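Mitochondrially encoded transcripts were described as the 37 genes whose symbol starts with MT-, out of 58825 genes in the deposited table. They comprise 2 ribosomal RNAs, 13 mRNAs and 22 transfer RNAs. All 37 reached a group mean of 1 FPKM (fragments per kilobase of transcript, scaled to the library total), the minimum for testing, and are among the 12411 genes tested. The samples were 4 libraries of HaCaT cells, an established human keratinocyte line, grown in a medium with 1.2 mM calcium. All cells had received lentivirus, which carried a control hairpin (shNC) in 2 libraries and one that targets lnc-DC, a long noncoding RNA, (shlnc-DC) in the other 2. How many hairpins or transductions lie behind each group is not given in the sources used here, so a p-value covers the spread among these libraries, which the series calls biological replicates. The comparison addresses which transcripts differ in level when lnc-DC is silenced in keratinocytes under differentiation.

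The mitochondrial genome is a small circle whose strands are each transcribed into long precursors. Transfer RNAs lie between most of the other genes, and their excision by RNase P and the nuclease ELAC2 frees the rRNAs and mRNAs, most of which then receive a short poly(A) tail. The mRNAs code for core subunits of respiratory complexes I, III and IV and of the ATP synthase, complex V, and the rRNAs and tRNAs serve the ribosomes inside the organelle. In keratinocytes, mitochondrial respiration and its reactive oxygen products are known to take part in epidermal differentiation.

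In GENCODE 29 (GRCh38), 28 of the genes lie on the plus strand of the mitochondrial reference and are read from the heavy-strand promoters. The other 9, MT-ND6 and 8 tRNAs, lie on the minus strand. Of the 36 pairs of neighbouring genes along the linear reference, 25 have no base between them, and 5 of these 25 overlap. The largest gap among the 36 pairs is 31 bases. The stretch that closes the circle is longer and is not among these pairs. It runs from MT-TP, which ends at base 16023, to MT-TF, which starts at base 577. The library protocol selected polyadenylated RNA with oligo(dT) and marked strand with dUTP, but whether reads were counted by strand is not given, so a gene and RNA from the opposite strand cannot be told apart.

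The target and the cell type were checked first. lnc-DC, annotated as WFDC21P, had 2.15 and 2.76 FPKM in control and 0.09 and 0.29 in knockdown libraries (limma adjusted p = 0.0715). Of 12 genes taken as keratinocyte markers, SFN was highest, while KRT1 was listed at 0 in all libraries and KRT14, KRT16 and KRT17 stayed below 1 FPKM. How specific each of the 12 is to keratinocytes was not tested. The sums of these 12 genes, EPCAM included, were 736 and 816 FPKM in control and 450.2 and 505 in knockdown libraries. KRT5, a keratin of basal cells, had 270.1 and 304 FPKM in control and 124 and 156 in knockdown libraries, and it and SFN make up most of these sums. CDH1 was also lower, at 41.6 and 41.04 FPKM in control and 28.65 and 26.04 in knockdown libraries. So were IVL, at 8.48 and 9.99 FPKM against 3.84 and 4.23, and KRT6A, at 8.45 and 13.67 against 3.63 and 5.14. Others of the 12 did not follow this direction. EPCAM had 93.3 and 109 FPKM in control and 102 and 119 in knockdown libraries. KRT10 stayed between 11.2 and 12.8 FPKM and TP63 between 7.52 and 9.35. All 6 fibroblast and all 4 melanocyte markers stayed below 1 FPKM. Blood cell markers summed to between 10.3 and 12.98 FPKM, nearly all of it CD68, with PTPRC listed at 0, and endothelial markers summed to between 3.61 and 6.44 FPKM, nearly all of it CDH5, with PECAM1 at 0.01 FPKM or less. Any part of these markers in the results below was not tested.

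Mitochondrial genes took up less of the table in the knockdown libraries. Their share of summed FPKM was 41.2% and 41.9% in control and 28.1% and 26.8% in knockdown libraries. The groups did not overlap, with means of 41.6% ± 0.467 and 27.4% ± 0.885 (SD, n = 2 per group); an exact two-sided permutation test of 2 against 2 cannot go below p = 0.3333, the value found. The mRNAs took 31.9% and 32.4% of summed FPKM in control and 21.6% and 19.6% in knockdown libraries, again without overlap. The tRNAs took slightly more in the knockdown libraries, at 2.04% and 1.9% in control and 2.26% and 2.22% in knockdown libraries. Summed FPKM of all other genes was 187945 and 196667 in control and 195151 and 201240 in knockdown libraries, and these ranges overlap. In a bulk library, fewer cells with a transcript and less of it per cell cannot be told apart.

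**Figure D1:**
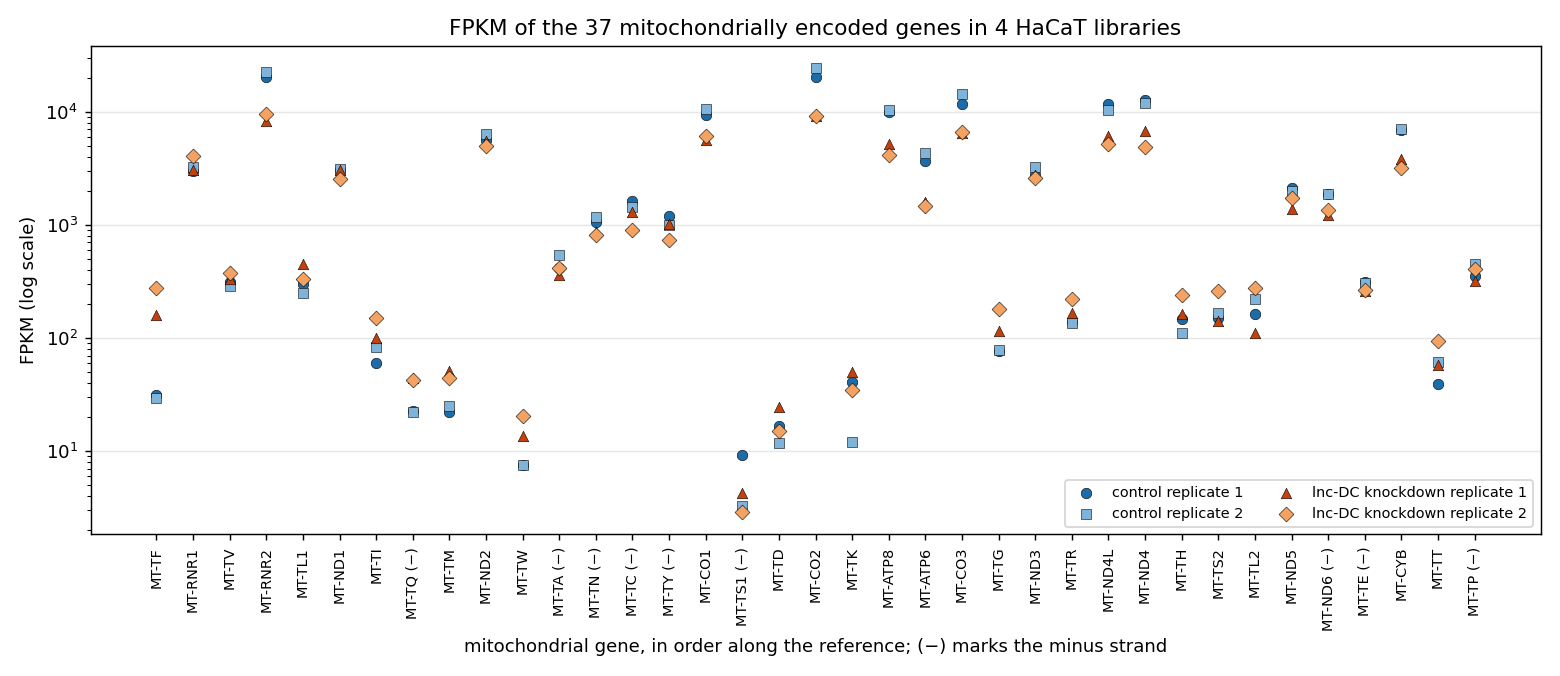
FPKM on a log axis (vertical) of the 37 mitochondrial genes in order along the reference (horizontal), 1 point per library, with circles and squares for control and triangles and diamonds for knockdown replicates 1 and 2. All 13 mRNAs and MT-RNR2 have both knockdown points below both control points, whereas MT-TF stands at 160.4 and 278 FPKM in knockdown against 31.3 and 29.6 in control libraries.

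None of the 37 genes passed limma's test over all genes at an adjusted p of 0.05. The lowest adjusted p was 0.0582; limma called 0.137% of all tested genes lower and 0.113% higher. With the low-value filter raised to 5 FPKM, MT-TF and MT-TQ passed as higher, beside 0.445% of the genes then tested, and under quantile normalization MT-TF did, beside 0.137%. Unadjusted limma p was under 0.05 for 11 members that were lower, against 8.00% of all tested genes, and for 7 that were higher, against 14.8%. The mRNAs were the most uniform class: all 13 had both knockdown values below both control values, where 19.2% of all tested genes did. Their median log2 difference was -0.98, beside 0.09 for all tested genes. All log2 differences are knockdown minus control means of log2(FPKM + 1), with limma's standard error (SE). Quantile normalization left only 6 of the 13 below 0; it gives every library the same set of values, and in each library the mRNAs and rRNAs hold ranks between 1 and 18 of all genes.

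Complex IV is the cytochrome c oxidase, which passes electrons to oxygen, and its MT-CO2 had the highest level of all mRNAs in each library. MT-CO2, a copper-binding subunit, had 20300.4 and 24321 FPKM in control and 9103 and 9144 in knockdown libraries, a log2 difference of -1.28 (SE 0.247, limma adjusted p = 0.1). MT-CO3 had 11824 and 14315 FPKM in control and 6445 and 6612 in knockdown libraries. MT-CO1, the catalytic subunit, had 9449 and 10559 FPKM in control and 5600.2 and 6052 in knockdown libraries, the smallest log2 difference of the complex at -0.78 (SE 0.213). The knockdown libraries lay close together for all 3 genes, and none of the groups overlapped.

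Complex V and complex III had differences of similar size. MT-ATP6, which forms part of the proton channel of ATP synthase, had 3691 and 4284 FPKM in control and 1584 and 1458 in knockdown libraries. This log2 difference of -1.39 (SE 0.181, limma adjusted p = 0.0723) was the largest among the mRNAs. MT-ATP8, the other mitochondrially encoded subunit of complex V, had 9882 and 10296 FPKM in control and 5201 and 4129.8 in knockdown libraries. MT-CYB codes for cytochrome b, the only mitochondrially encoded subunit of complex III. It had 6908 and 6980.5 FPKM in control and 3858 and 3194 in knockdown libraries, a log2 difference of -0.98 (SE 0.206, adjusted p = 0.109).

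MT-ATP8 and MT-ATP6 share part of 1 transcript in different reading frames, and so do MT-ND4L and MT-ND4. The stretches are shown because a fragment that spans one of them overlaps both genes of a pair. To which gene such fragments were counted is not given. They come from the GENCODE 29 transcripts (GRCh38, plus strand), with the shared bases in capitals and 15 bases on each side. The first lies at chrM:8512-8587 and the second at chrM:10745-10781.
MT-ATP8 and MT-ATP6: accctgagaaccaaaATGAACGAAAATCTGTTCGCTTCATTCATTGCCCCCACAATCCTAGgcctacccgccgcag
MT-ND4L and MT-ND4: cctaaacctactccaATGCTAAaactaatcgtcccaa
The overlaps are 46 and 7 bases long. The FPKM ratio of MT-ND4 to MT-ND4L stayed near 1, at 1.08 and 1.16 in control and 1.11 and 0.944 in knockdown libraries. The ratio of MT-ATP8 to MT-ATP6 was 2.68 and 2.40 in control and 3.28 and 2.83 in knockdown libraries. MT-ATP8, at 207 bases, and MT-ND4L, at 297 bases, are both shorter than the mean insert of 300 bases. MTATP6P1, a nuclear copy described below, held between 35.8% and 41.8% of the summed FPKM of itself and MT-ATP6. It is not part of this ratio.

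The 7 mRNAs of complex I, the NADH dehydrogenase, differed by unequal amounts. MT-ND4 had 12744 and 11957.5 FPKM in control and 6761 and 4893 in knockdown libraries, a log2 difference of -1.10 (SE 0.259), and MT-ND4L followed with 11788 and 10339 against 6069.8 and 5185 FPKM. MT-ND5 had 2126 and 2016 FPKM in control and 1379 and 1736 in knockdown libraries. MT-ND6, the only mRNA of the minus strand, whose transcript is known for lacking a regular poly(A) tail, had 1892 and 1859 FPKM in control and 1229 and 1353 in knockdown libraries (log2 difference -0.54, SE 0.156).

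MT-ND1, MT-ND2 and MT-ND3, membrane subunits of complex I, stood nearest to no difference. MT-ND1 had 3076 and 3102 FPKM in control and 3036 and 2561 in knockdown libraries (log2 difference -0.15, SE 0.186, limma adjusted p = 0.664). MT-ND2 had 5579.55 and 6378 FPKM against 5566 and 4957, and MT-ND3 2779 and 3252 FPKM against 2750.1 and 2603. In each of these 3 genes knockdown replicate 1 lay just below control replicate 1, and the log2 differences were smaller than their standard errors. All 3 are above 0 under quantile normalization, as are MT-CO1, MT-ND4L and MT-ND5.

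**Figure D2:**
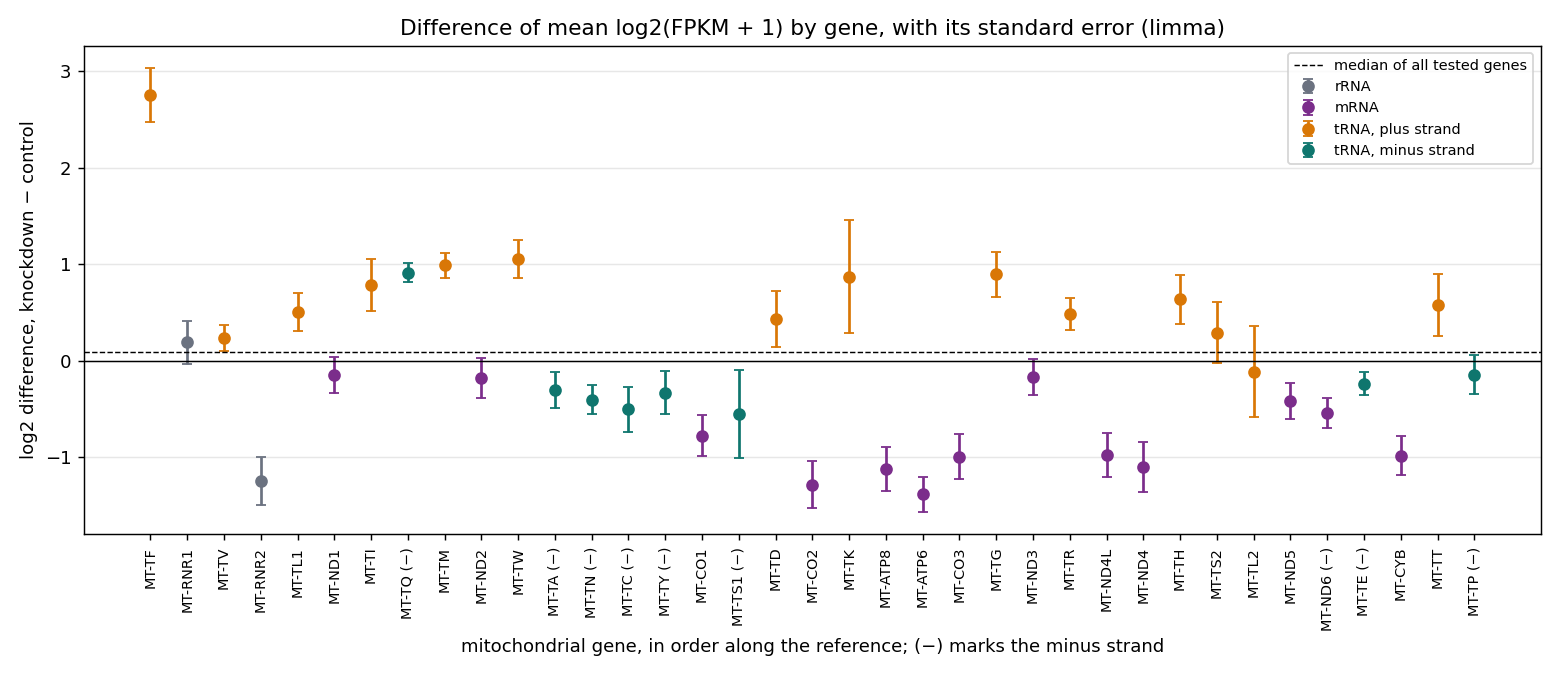
Difference of mean log2(FPKM + 1), knockdown minus control (vertical), of each mitochondrial gene in order along the reference (horizontal); bars are limma's standard errors, colours mark rRNA, mRNA and tRNA by strand, and the dashed line is the median of all tested genes, 0.09. All mRNAs lie below 0, 13 of 14 plus-strand tRNAs lie above 0, and 7 of 8 minus-strand tRNAs lie below 0.

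The 3 genes near no difference held a larger share of the mRNAs in the knockdown libraries. Within the summed FPKM of the 13 mRNAs, which does not depend on the library total, MT-ND1, MT-ND2 and MT-ND3 together held 11.2% and 11.6% in control and 19.4% and 18.8% in knockdown libraries. These 3 were grouped after their values were seen, so their share is a description. The shares of MT-ND5, at 2.08% and 1.84% in control and 2.35% and 3.22% in knockdown libraries, and of MT-ND6, at 1.85% and 1.695% against 2.098% and 2.51%, were higher in both knockdown libraries as well. All complex I mRNAs together held 39.2% and 35.5% in control and 45.7% and 43.2% in knockdown libraries. Complex IV held 40.7% and 44.9% in control and 36.1% and 40.5% in knockdown libraries, and complex V 13.3% in each control library and 11.6% and 10.4% in the knockdown libraries. The share of MT-CYB overlapped between groups, at 6.77% and 6.37% in control and 6.58% and 5.93% in knockdown libraries. The shares of MT-CO1, MT-CO3, MT-ND4L and MT-ND4 overlapped as well, and MT-CO2 held 19.9% and 22.2% in control and 15.5% and 16.97% in knockdown libraries.

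**Figure D3:**
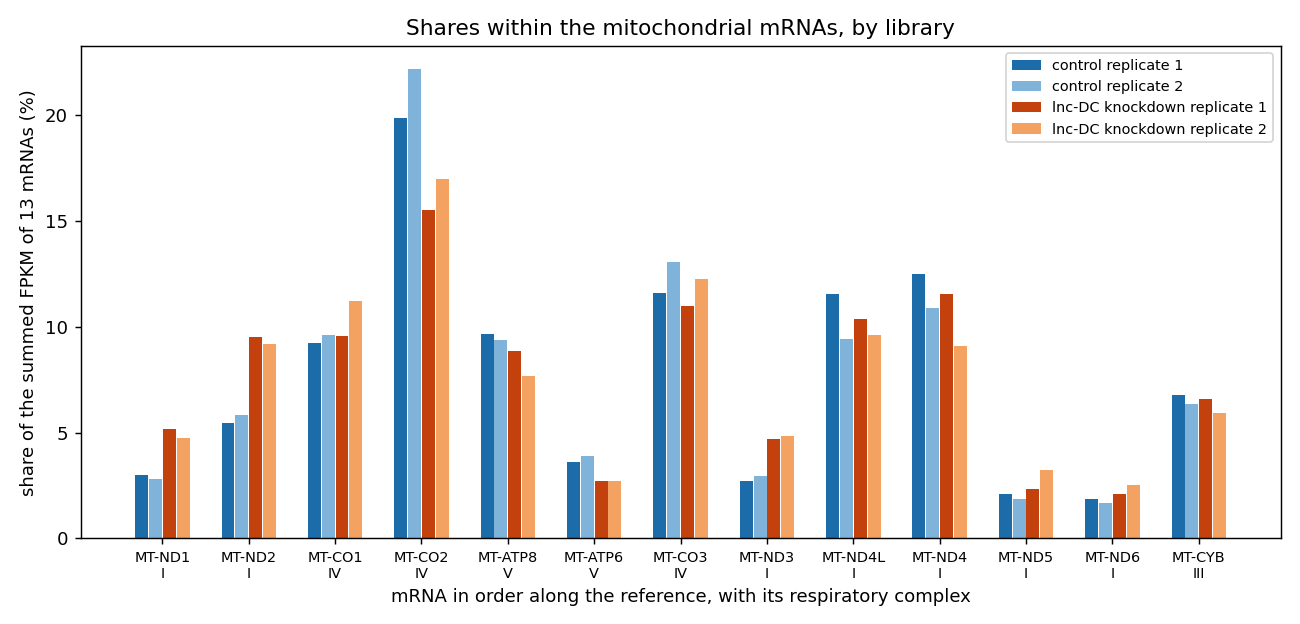
Share in percent of the summed FPKM of the 13 mitochondrial mRNAs (vertical) for each mRNA, labelled with its complex (horizontal), with 1 bar per library and no error bars. MT-ND1, MT-ND2, MT-ND3, MT-ND5 and MT-ND6 have both knockdown bars above both control bars, and MT-CO2, MT-ATP8 and MT-ATP6 have both below.

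For 6 of the 13 mRNAs the annotated gene ends in an incomplete stop codon, which a poly(A) tail completes. An annotated gene end is not always the site of the tail. MT-ATP8 and MT-ND4L run on into the next gene, and 25 bases separate MT-CO2 from MT-TK. The last 30 bases are shown for the 3 mRNAs nearest to no difference and for 3 with large differences, chosen by those values, from GENCODE 29 (GRCh38), 5′ to 3′, with the stop codon or its encoded part in capitals.
MT-ND1: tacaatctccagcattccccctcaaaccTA
MT-ND2: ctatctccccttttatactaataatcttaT
MT-ND3: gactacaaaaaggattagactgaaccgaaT
MT-CO2: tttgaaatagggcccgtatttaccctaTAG
MT-ATP6: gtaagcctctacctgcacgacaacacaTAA
MT-ND4: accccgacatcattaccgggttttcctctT
An incomplete stop codon ends MT-ND1, MT-ND2 and MT-ND3, with log2 differences between -0.18 and -0.15, and MT-ND4, MT-CO3 and MT-CYB, with log2 differences between -1.10 and -0.98. Whether other properties of the ends go with the differences was not tested.

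The rRNAs, both on the plus strand with MT-TV between them, differed unequally. MT-RNR2, the 16S rRNA of the large ribosomal subunit, had 20278 and 22431 FPKM in control and 8361 and 9639 in knockdown libraries (log2 difference -1.25, SE 0.245, limma adjusted p = 0.102). MT-RNR1, the 12S rRNA of the small subunit, had 3007 and 3235 FPKM in control and 3084 and 4105 in knockdown libraries, and the groups overlapped. The ratio of MT-RNR2 to MT-RNR1 was 6.74 and 6.93 in control and 2.71 and 2.35 in knockdown libraries, a 2.70-fold lower mean. Mitochondrial rRNAs are known to carry short A tails, and the longest run of A within the gene is 7 bases in MT-RNR2 and 6 in MT-RNR1. Under quantile normalization MT-RNR2 differed by 0.04, and MT-RNR1 differed by -0.02 without knockdown replicate 2.

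MT-TF, the phenylalanine tRNA that opens the plus-strand precursor just before MT-RNR1, differed most of all members. It had 31.3 and 29.6 FPKM in control and 160.4 and 278 in knockdown libraries, a 7.19-fold higher mean. Its log2 difference was 2.75 (SE 0.278, limma adjusted p = 0.0582), and between 2.36 and 3.15 over the 13 alternative settings, with adjusted p between 0.0438 and 0.251. MT-TV, the valine tRNA between the rRNAs, had 311 and 288 FPKM in control and 332 and 373 in knockdown libraries. Set against MT-RNR1, the ratio of MT-TF was 0.0104 and 0.00914 in control and 0.0520 and 0.0676 in knockdown libraries, whereas that of MT-TV overlapped, at 0.104 and 0.0889 against 0.108 and 0.0910. MT-TL1, the leucine tRNA that follows MT-RNR2 and holds the binding site of the termination factor MTERF1, had 298 and 251 FPKM in control and 449.5 and 336 in knockdown libraries.

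**Figure D4:**
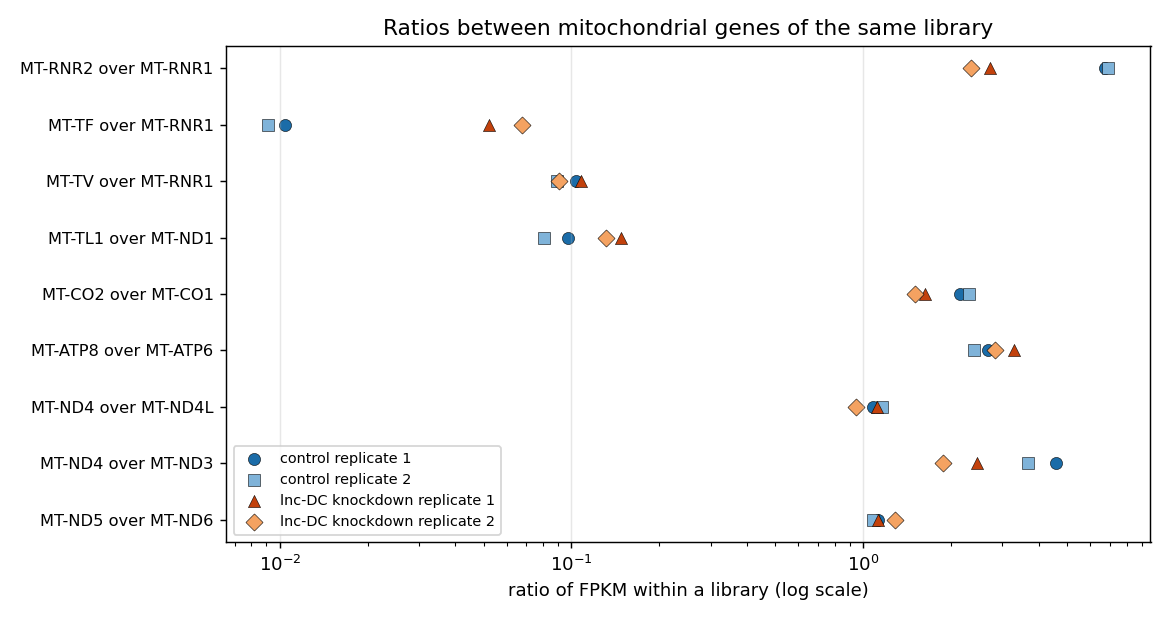
Ratio of FPKM between the named mitochondrial genes within each library (horizontal, log axis), 1 row per pair and 1 point per library, with circles and squares for control and triangles and diamonds for knockdown. The groups stand apart for MT-RNR2 over MT-RNR1 and MT-TF over MT-RNR1 and overlap for MT-TV over MT-RNR1, MT-ND4 over MT-ND4L and MT-ND5 over MT-ND6.

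The tRNAs differed by strand. Of the 14 plus-strand tRNAs, 13 lay above 0, as did 61.4% of all tested genes, with a median of 0.61, and 9 had both knockdown values above both control values, against 35.6% of all tested genes. Of the 8 minus-strand tRNAs, 7 lay below 0, as did 38.6% of all tested genes, with a median of -0.32, and 4 had both knockdown values below both control values, against 19.2% of all tested genes. Summed FPKM was 1505 and 1481 in control and 1939.5 and 2531 in knockdown libraries for the plus strand, and 5006 and 4949.98 against 4182 and 3584 for the minus strand. The minus-strand share of all tRNA FPKM was 76.9% and 77.0% in control and 68.3% and 58.6% in knockdown libraries. Mature tRNAs have no poly(A) tail, and at 59 to 75 bases these genes are shorter than a read of 150 bases; which RNA species the tRNA rows count was not tested.

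Besides MT-TF, the plus-strand tRNAs with the lowest p were MT-TM, MT-TW and MT-TG, which pair with methionine, tryptophan and glycine codons. MT-TM had 22.0 and 25.3 FPKM in control and 50.9 and 44.7 in knockdown libraries (log2 difference 0.99, SE 0.131, limma adjusted p = 0.0723). MT-TW had 7.49 and 7.63 FPKM in control and 13.8 and 20.3 in knockdown libraries. MT-TG had 76.4 and 78.7 FPKM in control and 116 and 181 in knockdown libraries. Higher values in both knockdown libraries were also found for MT-TI, MT-TR and MT-TH, with log2 differences of 0.78, 0.48 and 0.64. MT-TD, MT-TK, MT-TS2, MT-TL2 and MT-TT overlapped between groups. MT-TL2 was the only plus-strand tRNA below 0; it had 163 and 220.2 FPKM in control and 110.0 and 279 in knockdown libraries, the wider spread being within the knockdown group.

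MT-TQ, the glutamine tRNA, stood apart from the other minus-strand tRNAs. It had 22.9 and 22.4 FPKM in control and 44.0 and 43.0 in knockdown libraries (log2 difference 0.91, SE 0.0991, limma adjusted p = 0.062). It lies between MT-TI and MT-TM, both of the plus strand and both higher in the knockdown libraries, and shares 3 bases with MT-TI. MT-TN, MT-TC and MT-TY, which lie in 1 cluster with MT-TA in front of MT-CO1, had the highest FPKM of all tRNAs in each library. MT-TC, the cysteine tRNA, had 1639 and 1446 FPKM in control and 1305 and 899.6 in knockdown libraries. MT-TN, the asparagine tRNA, had 1052 and 1185 FPKM against 874 and 814 (log2 difference -0.40, SE 0.152, adjusted p = 0.214). MT-TA and MT-TE also had both knockdown values below both control values, while MT-TY, MT-TS1 and MT-TP overlapped.

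The sequences of the tRNAs with the largest values or differences are shown so that a reader can set the strands side by side. They are given 5′ to 3′ as transcribed, from GENCODE 29 (GRCh38), with the first of the longest runs of A in capitals. MT-TF lies at chrM:577-647, MT-TM at chrM:4402-4469 and MT-TW at chrM:5512-5579 on the plus strand, and MT-TQ at chrM:4329-4400, MT-TN at chrM:5657-5729 and MT-TC at chrM:5761-5826 on the minus strand.
MT-TF: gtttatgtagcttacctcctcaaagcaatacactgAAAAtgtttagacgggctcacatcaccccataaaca
MT-TM: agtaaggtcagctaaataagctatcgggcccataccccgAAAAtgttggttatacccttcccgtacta
MT-TW: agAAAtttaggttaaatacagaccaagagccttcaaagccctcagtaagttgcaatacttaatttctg
MT-TQ: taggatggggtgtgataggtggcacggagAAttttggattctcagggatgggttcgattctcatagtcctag
MT-TN: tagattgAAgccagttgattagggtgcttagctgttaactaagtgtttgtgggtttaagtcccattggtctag
MT-TC: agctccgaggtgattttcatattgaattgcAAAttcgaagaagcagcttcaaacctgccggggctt
Over all 22 tRNAs the longest runs are 3 to 6 bases on the plus strand and 2 to 5 on the minus strand. Across the 14 plus-strand tRNAs the Spearman correlation of run length with the log2 difference was -0.06, and across the 8 minus-strand tRNAs -0.50; the genes share precursors and libraries and are not independent.

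Place along the genome gave little order to the differences of the mRNAs. Across the 13 mRNAs the Spearman correlation of the log2 difference with the start position was -0.10, with length 0.20 and with GC content 0.02. It was -0.64 with the control mean, so that mRNAs with higher control levels tended to lie further below 0. Across the 14 plus-strand tRNAs the correlation with start position was -0.38 and with the control mean -0.68. The control mean also enters each difference, and these values describe the 4 libraries only.

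Nuclear copies of mitochondrial genes can take reads from them. Of 407 named copies in the table, 353 were listed at 0 in all libraries and 8 reached a group mean of 5 FPKM. MTATP6P1, which matches MT-ATP6 at 98.5% of 681 bases, held 40.9% and 38.4% of the pair's summed FPKM in control and 41.8% and 35.8% in knockdown libraries. With the copy added, MT-ATP6 was 2.64-fold lower in the mean of the knockdown libraries, against 2.62-fold without it. MTND2P28 held between 3.12% and 12.1% of its pair's sum and MTCO1P12 between 0.537% and 5.58%, and both were lower in each replicate 2 library than in the replicate 1 library of its group. The other 5 copies held at most 1.17%. No mitochondrial gene changed sign or gained a call when the copies named for it were added, a setting chosen after the data were seen. None was called without the copies, so no call could be lost.

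The nuclear partners of these subunits did not share their difference. None of the 79 tested nuclear subunits of complexes I to V was called in either direction. Over all tested genes limma called 0.113% higher and 0.137% lower, so few calls would be found among 79 genes in any case. The medians of the log2 differences were 0.05 over 37 nuclear subunits of complex I, 0.06 over 9 of complex III, -0.03 over 11 tested of 13 of complex IV and 0.12 over 18 of complex V. The mitochondrially encoded subunits had medians of -0.42, -0.98, -0.99 and -1.25 in the same order. Complex II, which has no mitochondrially encoded subunit, had a median of -0.13 over 4 genes. In complexes III, IV and V every nuclear subunit lay above every mitochondrially encoded one, the lowest nuclear value being -0.26 for ATP5F1E, a subunit of the ATP synthase stalk. In complex I the values overlapped, the lowest nuclear value of -0.35 lying below those of MT-ND1, MT-ND2 and MT-ND3. Of its 37 nuclear subunits 22 lay above 0 and 15 below, beside 61.4% of all tested genes above 0. Unadjusted limma p was under 0.05 for 3 of the 37, all higher, beside 14.8% of all tested genes. NDUFB9 had 16.6 and 13.6 FPKM in control and 27.2 and 23.0 in knockdown libraries (limma adjusted p = 0.111). NDUFA6 and NDUFB6 followed by p, with log2 differences of 0.51 and 0.39.

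**Figure D5:**
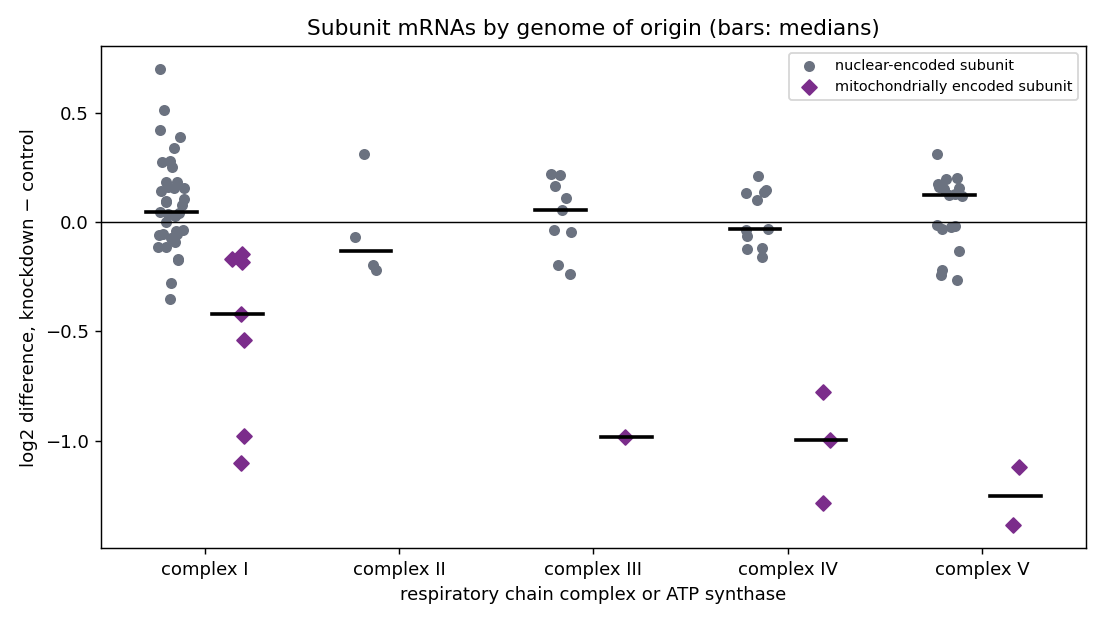
Log2 difference, knockdown minus control (vertical), of nuclear-encoded (grey circles) and mitochondrially encoded (purple diamonds) subunit mRNAs of each complex (horizontal), 1 point per gene with horizontal bars at the medians. The mitochondrially encoded medians lie between -1.25 and -0.42 and the nuclear medians between -0.13 and 0.12.

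Of the factors that transcribe, process and degrade mitochondrial RNA, none was called by limma at an adjusted p of 0.05. Counts of these factors are read against all tested genes, of which 0.113% were called higher and 0.137% lower. Of all tested genes 61.4% lay above 0 (median 0.09), 14.8% were higher with an unadjusted limma p under 0.05 and 8.00% were lower. Of 11 transcription genes 8 lay above 0, with a median of 0.18, near that background. TFAM, which packages mitochondrial DNA and starts transcription, lay below 0, at 14.9 and 14.6 FPKM in control and 8.90 and 10.6 in knockdown libraries (log2 difference -0.56, SE 0.125, adjusted p = 0.113). TFB2M, which opens the promoters with the polymerase, had 15 and 17 FPKM against 22.0 and 24.9, and the elongation factor TEFM 6.74 and 6.95 against 9.04 and 8.75. Unadjusted p was under 0.05 for 2 of these 11 genes that were higher and 1 that was lower, also near the shares of all tested genes (14.8% and 8.00%).

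Of 29 RNA processing genes 23 lay above 0, with a median of 0.23, and 6 had an unadjusted limma p under 0.05, all higher, beside 61.4% and 14.8% of all tested genes. TRMT10C, a subunit of the RNase P that cuts the 5′ ends of the tRNAs, had 24.9 and 27.4 FPKM in control and 37.9 and 41.1 in knockdown libraries (adjusted p = 0.103). FASTKD3 and FASTKD2, RNA-binding proteins of the organelle, had log2 differences of 0.57 and 0.55. All 10 genes of RNA stability and decay lay above 0, with a median of 0.28. PDE12, which removes poly(A) from mitochondrial RNA, had 1.96 and 1.88 FPKM against 3.74 and 3.47. SUPV3L1, the helicase of the degradosome, had 13.9 and 14.1 FPKM against 18.9 and 17.8, and TACO1, a translational activator of MT-CO1, had a log2 difference of 0.32.

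The remaining lists held no called gene either, beside 0.113% of all tested genes called higher and 0.137% lower. Of 21 genes of mitochondrial DNA maintenance 15 lay above 0 (median 0.30), and 8 higher and 1 lower gene had an unadjusted limma p under 0.05, beside 61.4% above 0 and 14.8% and 8.00% with such a p over all tested genes. The lowest p belonged to the nucleotide carrier SLC25A33, the ADP/ATP carrier SLC25A4 and the nucleoid-associated ATPase ATAD3A, with log2 differences of 0.64, 0.52 and 0.42. Of 10 tested biogenesis regulators 7 lay above 0 and 3 below (median 0.13), beside 61.4% of all tested genes above 0. GABPB1, a subunit of the GABP transcription factor, had 5.54 and 5.64 FPKM in control and 11.1 and 11.2 in knockdown libraries (limma adjusted p = 0.0661). PRKAA1 and NRF1 followed by p, with log2 differences of 0.29 and -0.23. Of 17 mitochondrial stress proteins 11 lay above 0 and 6 below (median 0.16), also beside 61.4%. ATF5, a transcription factor of the mitochondrial unfolded protein response, had 3.55 and 3.34 FPKM against 7.43 and 6.74. The stress cytokine GDF15 had 5.99 and 5.05 FPKM against 9.71 and 9.88, and the protease AFG3L2 a log2 difference of 0.38. Of 12 mitophagy genes 8 lay above 0 and 4 below (median 0.07), again beside 61.4%. The receptor SQSTM1 had 50.4 and 50.6 FPKM in control and 104 in each knockdown library (limma adjusted p = 0.055). FUNDC1 had a log2 difference of 0.62 and FKBP8 of -0.33.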

How the data were processed

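Poly(A)-selected RNA of 4 HaCaT libraries (control hairpin, knockdown; 2 each) was sequenced as paired reads of 150 bases, per the labels' protocols. The authors deposited FPKM per gene and library. They also deposited a ratio of group means and its log2, which were not used. The tools listed per the submitters' processing notes are StringTie 1.3.4d, edgeR, HISAT2 2.0.4, DESeq2 and cutadapt 1.9; their roles and the build, annotation, strand setting and treatment of multiply mapped reads are not given in the sources used. FPKM is relative to the library total, and read depth is unknown. There were 0 columns without a sample. Because FPKM are not counts, limma 3.58.1 in R 4.3.3 (with its trend option, without its robust option, fitting group alone) was run on log2(FPKM + 1), two-sided, with Benjamini-Hochberg adjustment at 0.05, over the 12411 genes with a group mean of at least 1 FPKM. The fit was also run on normal values simulated with its own estimated spreads, which cannot test whether these libraries meet its assumptions. Positions and sequences came from GENCODE 29 (GRCh38), matched by gene ID for 58552 of 58825 genes and all 37 members. Alternatives were pseudocount 0.1, no filter or 5 FPKM, quantile, median and nuclear scaling, trend off, a replicate block, each library left out and nuclear copies added. Members and lists were chosen with earlier results of these data known. Named genes were the members, WFDC21P, up to 3 genes with the lowest p per list, copies of at least 5 FPKM and keratinocyte markers. KRT6A, KRT16, KRT17, CDH1, EPCAM, CD68, PTPRC, CDH5, PECAM1 and SFN were named after their values were seen.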

Additional observations from a re-analysis of the deposited data

How the results depend on the processing

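Of 37 members, 24 kept their sign in all 13 alternative settings, and no member passed the threshold except MT-TF with the filter of 5 FPKM (adjusted p = 0.0438) and quantile normalization (0.0483), and MT-TQ with the filter of 5 FPKM (0.0474; 0.0474 to 0.251 over all alternatives). At the filter of 5 FPKM, 0.445% of genes were called higher. Quantile normalization gave log2 differences of 0.0396 for MT-RNR2, 0.19 for MT-ND1, 0.57 for MT-ND2, 0.0740 for MT-CO1, 0 for MT-CO3, 0.19 for MT-ND3, 0.0582 for MT-ND4L and 0.14 for MT-ND5, so that 6 mRNAs lay below 0 with a median of 0; under the other alternatives the median lay between -1.06 and -0.85 and all 13 lay below 0. With 1 library left out, MT-RNR1 ranged from -0.0162 (without knockdown replicate 2) to 0.396, MT-TS2 from -0.159 (the same library) to 0.738, MT-TS1 from -1.19 to 0.0889 (without control replicate 1), MT-TL2 from -0.780 to 0.554 (without knockdown replicate 1; 0.101 without control replicate 2) and MT-TP from -0.319 to 0.0317 (without control replicate 2; 0.0311 without knockdown replicate 1). The mitochondrial share differed by -14.1 percentage points between groups and by -11.6 for mRNAs only. It differed by -13.3 for mRNAs among the genes that the deposited data label protein-coding. Of the summed FPKM of genes with that label, the mRNAs held 79.1% and 79.2% in control and 67.2% and 64.5% in knockdown libraries. In control replicate 1 the mitochondrial mRNAs summed to 102039 FPKM and all nuclear genes to 187945, so most nuclear FPKM lies outside that label. This share therefore leaves out most of the nuclear FPKM. How many of the nuclear protein-coding genes carry the label was not tested. Over all genes, limma called 14 higher and 17 lower. The counts were 0 and 0 with no filter (3876 with unadjusted p under 0.05), 31 and 27 with the filter of 5 FPKM, 8 and 9 with trend off, and 40 lower with quantile normalization. They ranged from 0 to 0 when any 1 library was left out (1781 to 2235 with unadjusted p under 0.05). With the replicate block 0 were called higher and 0 lower (3791 with unadjusted p under 0.05); same-numbered libraries' deviations correlated at 0.124 across genes, but 2 pairs do not show that the numbers pair the samples. The causes of these moves were not tested.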
